A study of Mus musculus with 7 samples.

Results

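The transcripts of 7 surface antigens that define or divide Lin-Sca1+Kit+ (LSK) cells, the bone marrow fraction holding hematopoietic stem cells and multipotent progenitors, were examined: Ly6a (Sca-1), Kit, Cd34, Cd48, Cd27, Cd9 and Esam. They were chosen by gene symbol from 24421 symbols in the count table, and all 7 were among the 13340 genes with enough counts to be tested. The samples were LSK cells sorted from the crushed leg bones of 7 recipient mice, about 20000 cells per mouse, 4 Ddx41+/+ (replicates 1 to 4) and 3 Ddx41+/- (replicates 6 to 8). Every recipient was a lethally irradiated BoyJ mouse given 1000000 bone marrow cells of a Rosa-CreERT2 donor, whose tamoxifen-activated recombinase is driven from the ubiquitous Rosa26 locus. Donors of the Ddx41+/- group carried 1 floxed Ddx41 allele, and donors of the Ddx41+/+ group carried none. Both groups received 1 mg of tamoxifen in 50 µl of corn oil per injection, in 2 rounds of 5 days separated by 2 days, and were analysed 8 weeks after the transplant. Cre and tamoxifen are thus shared by the controls. The labels give neither the age of the mice nor a gate for donor cells, so host LSK cells that outlived irradiation cannot be told apart from donor cells.

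These antigens mark steps of one hierarchy. Sca-1, a small lipid-anchored protein of the Ly6 family, and KIT, the receptor tyrosine kinase for stem cell factor, set the LSK gate itself. Within the gate of adult mice, long-term stem cells are low in the sialomucin CD34 and lack the SLAM family protein CD48, whereas multipotent progenitors gain both. CD27, a receptor of the TNF receptor family bound by CD70, is kept by short-term stem cells and multipotent progenitors. The tetraspanin CD9 and the junction adhesion protein ESAM are high on stem cells and also occur on megakaryocytes and endothelium, respectively. The sort fixed Sca-1 and KIT protein, so the levels of Ly6a and Kit were measured in cells already chosen by their products. Transcript levels do not give the amount of protein at the surface.

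Sequence bears first on what a Ly6a count can mean, because Ly6a lies on mouse chromosome 15 among relatives that share stretches of its sequence. Of the 1311 different 75-base words in the annotated Ly6a transcripts (75 bases being the read length), 83 (6.33%) also occurred in Ly6c1 or Ly6i. A read from such a word does not by itself name a single gene, although the other read of its pair may. An 80-base coding stretch of Ly6a (coding bases 50 to 129, over 2 exons within chr15:74996510-74997555, GRCm38, minus strand) is shown beside the same stretch of 3 relatives, with bases that differ from Ly6a in capitals.
Ly6a: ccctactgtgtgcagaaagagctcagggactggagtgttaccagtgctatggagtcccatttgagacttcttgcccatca
Ly6i: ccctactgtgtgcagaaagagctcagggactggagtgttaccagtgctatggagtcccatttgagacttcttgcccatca
Ly6c1: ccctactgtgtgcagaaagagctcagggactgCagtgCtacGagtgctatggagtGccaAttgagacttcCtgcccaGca
Ly6c2: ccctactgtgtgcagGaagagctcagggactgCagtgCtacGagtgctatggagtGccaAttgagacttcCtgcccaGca
Ly6i matched Ly6a at every base here, Ly6c1 differed at 7 and Ly6c2 at 8. How reads that fit several genes were counted is not given in the sources used here, so the part of the Ly6a level that rests on shared words is uncertain.

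For genes whose transcripts moved alike or apart in the samples, the sequence ahead of the start site is given from RefSeq (GRCm38.p6), 175 bases from position -250 to -76 relative to the annotated start. Cd27, Cd34 and Cd9 had lower means in Ddx41+/- cells, and Kit had the same mean in both genotypes. Capitals mark matches to an ETS core (AGGAAG) or a GC box (GGGCGG) on either strand.
Cd34, chr1:194938571-194938745, plus strand: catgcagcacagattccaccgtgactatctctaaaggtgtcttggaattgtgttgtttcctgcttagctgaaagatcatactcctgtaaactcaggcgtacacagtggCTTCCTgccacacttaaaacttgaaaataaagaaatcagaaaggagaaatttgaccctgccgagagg
Cd27, chr6:125237103-125237277, minus strand: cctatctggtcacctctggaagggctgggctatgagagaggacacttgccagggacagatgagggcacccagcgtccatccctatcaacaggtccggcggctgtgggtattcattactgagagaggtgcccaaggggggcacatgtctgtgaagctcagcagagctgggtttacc
Cd9, chr6:125494836-125495010, minus strand: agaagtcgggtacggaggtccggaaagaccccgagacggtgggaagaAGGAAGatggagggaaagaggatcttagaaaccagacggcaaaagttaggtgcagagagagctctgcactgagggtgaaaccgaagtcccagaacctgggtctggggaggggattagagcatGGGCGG
Kit, chr5:75574737-75574911, plus strand: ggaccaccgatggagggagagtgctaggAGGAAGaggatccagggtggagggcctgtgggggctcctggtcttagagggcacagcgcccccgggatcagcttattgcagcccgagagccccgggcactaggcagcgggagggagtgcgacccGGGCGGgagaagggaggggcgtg
The ETS core occurred once each in Kit (position -222), Cd34 (-142) and Cd9 (-203), and in 20.7% of the 27025 windows of the same place and length in the RefSeq table. The GC box occurred once in Kit (-98) and once in Cd9 (-81), and in 20.0% of all windows. The exact hexamers AGATAA (a form of the GATA site, 7.79% of all windows) and TGTGGT (a RUNX core, 10.1%) were also searched on either strand. Neither was found in these 4 windows or in that of Cd48, and no match overlapped another. Other forms of these sites were not searched, so their absence is not shown. The window of Cd27 held none of these 4 exact hexamers. Bases nearer the start than -76 were not searched, and Esam, also lower in Ddx41+/- cells, had no window. Whether promoter sequence bears on the genotype differences was not tested. Ly6a and Esam had no entry and are named only.

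Depth was even across the samples, at 32234499 to 43751290 counts per sample, and no pair of samples agreed within sampling noise (chi-square per gene of at least 13.7 in 21 pairs). Ddx41 itself, the targeted RNA helicase gene, fell to 68.8% in Ddx41+/- cells (log2 fold change of -0.54 with an SE of 0.0714, adjusted p = 0.0052 by edgeR), with 92.8 to 106.6 CPM (counts scaled to a library of 1000000) in the Ddx41+/+ samples and 64.4 to 69.5 CPM in the Ddx41+/- samples. Antigen transcripts of LSK cells were present in every sample, with Kit at 427.1 CPM or more and Cd34 at 646.7 CPM or more. Flt3 was at 164.1 CPM or more, Ly6a at 13.3, Slamf1 at 5.87 and Procr at 3.26 CPM or more. The pan-leukocyte gene Ptprc had a mean of 206.7 and 216.8 CPM. These levels do not give the purity of the sort. Defining T cell genes of the lineage gate were near 0 (Cd3e at most 0.347 CPM and Cd3d at most 0.386 CPM), and 4 globin genes were listed at 0 in all samples. Markers of neutrophils were not at 0, and 11 of 13 stood higher in Ddx41+/- samples by unadjusted p, as given below beside the antigens. The p-values for genotype measure the spread between recipient mice, and the study's methods do not state whether each recipient had its own donor. In bulk samples, fewer cells of a type and less RNA per cell cannot be told apart.

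Levels of different genes were compared per length, as CPM per kilobase of summed exons over all 7 samples. Cd34 (101.7 ± 8.91, SD, n = 7) and Cd48 (100.5 ± 9.86) stood highest and overlapped each other. Kit (52.4 ± 2.85) and Cd27 (49.6 ± 4.79) followed and overlapped as well, and by this length each of them lay below Cd48 in all 7 samples. Cd9 (25.2 ± 2.18) and Ly6a (17.3 ± 4.48) overlapped, and Esam was lowest at 3.49 ± 0.653. Among 12846 tested genes with a length, this placed Cd34 and Cd48 at percentile 96.9, Kit at 92.6, Cd27 at 92.1, Cd9 at 83.1, Ly6a at 75.3 and Esam at 37.4. With the longest transcript as the length, the order was the same, and Cd34 (242.1 CPM per kilobase) no longer overlapped Cd48 (100.8). Cd48 then overlapped Kit (89.1) and lay above it in 5 of 7 samples, and Cd9 and Ly6a no longer overlapped. As counted, the transcript of Sca-1, 1 of the 2 gate antigens, was thus below the progenitor antigens Cd34 and Cd48 in every sample. Reads lost to its relatives could lower this level, which was not tested.

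**Figure D1:**
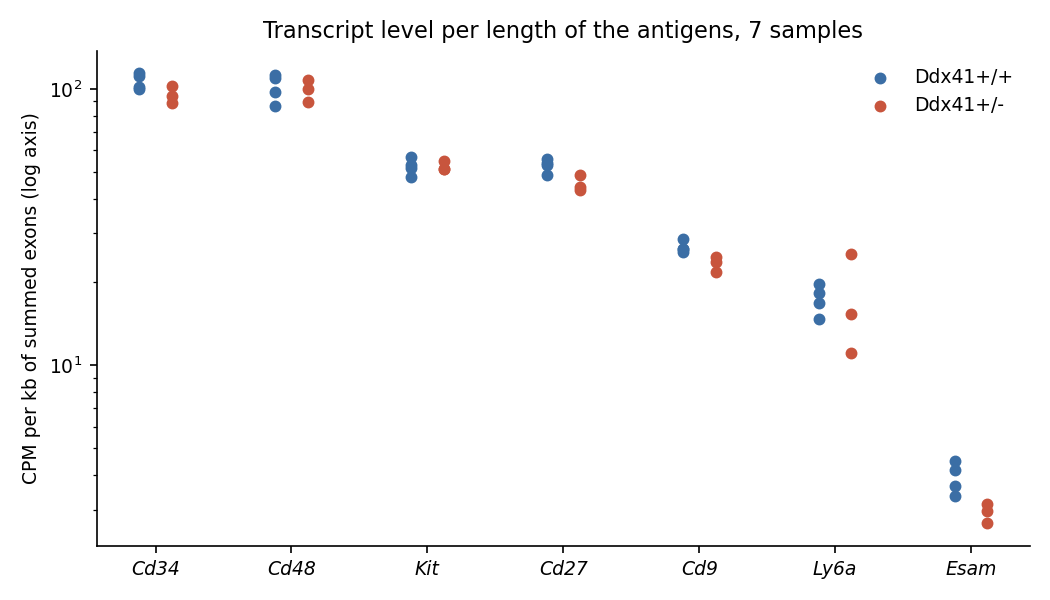
Transcript level of each antigen gene per length (CPM per kilobase of summed exons, log axis) in 4 Ddx41+/+ and 3 Ddx41+/- samples, 1 point per sample. Cd34 and Cd48 overlap at the top (means of 101.7 and 100.5), Kit and Cd27 overlap next, Cd9 and Ly6a follow, and Esam lies apart at the bottom (mean 3.49).

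Within the Ly6 family, Ly6a as counted stood below Ly6e and Ly6c2 per length, with the handling of its shared reads unknown. Ly6e, a widely expressed relative, reached 331.2 CPM per kilobase and Ly6c2, a gene of myeloid cells, 182.6, against 17.3 for Ly6a. The genes that share words with it were lower still, Ly6i at 0.763 and Ly6c1 at 0.447 CPM per kilobase. Ly6c2, which shares no 75-base word with Ly6a in the annotation, was at 475.0 ± 78.8 CPM in Ddx41+/+ cells and 533.8 ± 32.6 CPM in Ddx41+/- cells (adjusted p = 0.659).

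The genotype comparison asked whether loss of 1 Ddx41 allele goes with other levels of these antigens in LSK cells. None of the 7 genes passed an adjusted p of 0.05 by edgeR's quasi-likelihood test, where 0.217% of all 13340 genes did (29 genes). By unadjusted p, 4 of 7 were under 0.05, all with lower means in Ddx41+/- cells (Cd34, Cd27, Cd9 and Esam), where 4.93% of all genes had such a p with a lower mean and 10.6% in either direction. By DESeq2, 0 of 7 passed an adjusted p of 0.05 as well. None of the 7 was higher by unadjusted p (5.7% of all genes) or higher without overlap (4.85%). Cd9 and Esam were lower without overlap between genotypes, 2 of 7, beside 5.21% of all genes. Percentages given for a gene are its mean CPM in Ddx41+/- cells relative to Ddx41+/+ cells. The median log2 fold change of the 7 genes was -0.16, and that of all genes tested was -0.0048.

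**Figure D2:**
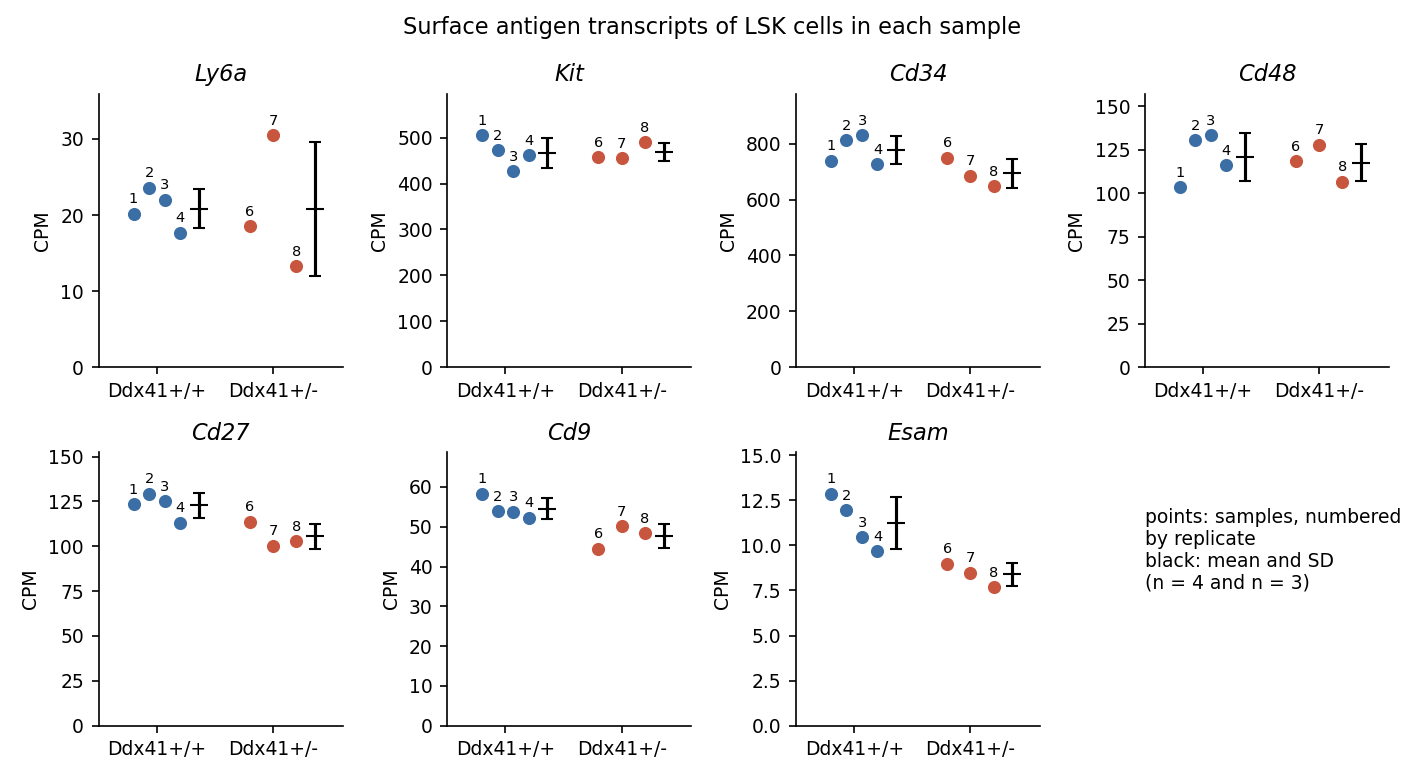
CPM of the 7 antigen genes in each sample (blue, Ddx41+/+ replicates 1 to 4; red, Ddx41+/- replicates 6 to 8), each panel from 0, with black bars for mean and SD. Cd9 and Esam separate the genotypes, Kit and Cd48 overlap, and Ly6a spreads from 13.3 to 30.5 CPM within the Ddx41+/- group.

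The gate antigens did not separate the genotypes. Ly6a measured 20.2, 23.6, 22.02 and 17.7 CPM in the Ddx41+/+ samples and 18.5, 30.5 and 13.3 CPM in the Ddx41+/- samples. Replicates 7 and 8, both Ddx41+/-, were the highest and lowest of all 7 samples, so the Ddx41+/- group spanned the whole Ddx41+/+ range. The means were 20.9 ± 2.56 CPM (SD, n = 4) and 20.8 ± 8.82 CPM (SD, n = 3), a log2 fold change of -0.01 with an SE of 0.249 (adjusted p = 0.992). The coefficient of variation was 42.4% in the Ddx41+/- samples, against 12.3% in the Ddx41+/+ samples, and the counts behind it were 590 to 1028 per sample. A single sample decided the Ly6a value, which was -0.39 on the log2 scale without replicate 7 (unadjusted p = 0.0234, adjusted p = 0.597) and 0.23 without replicate 8. The share of counts from the ribosomal RNA gene Rn45s was at 2.58% in replicate 7 and 0.623% in replicate 8, and was lowest among Ddx41+/+ samples in replicate 4 (0.876%), the lowest of them for Ly6a. It was highest in Ddx41+/+ replicate 3 (2.92%), which was not the highest for Ly6a. Its part in the Ly6a values was not tested.

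Kit was at 505.1, 472.0, 427.1 and 461.4 CPM in Ddx41+/+ cells and at 457.5, 455.5 and 490.2 CPM in Ddx41+/- cells. The Ddx41+/- values all lay inside the Ddx41+/+ range, and Kit was the steadiest of the 7 genes in that group, with a coefficient of variation of 4.16%. Means of 466.4 ± 32.2 and 467.7 ± 19.4 CPM gave a log2 fold change of 0.00 with an SE of 0.0641 (adjusted p = 0.990). Of the other genes of KIT signalling (ligand, adaptors, kinases, phosphatases and feedback inhibitors), 0 of 38 passed an adjusted p of 0.05, and 2 were lower and 1 higher by unadjusted p, with a median log2 fold change of -0.0057. The kinase gene Fyn was at 78.4% of the Ddx41+/+ level (adjusted p = 0.207), the adaptor gene Dok1 at 87.5% (adjusted p = 0.444) and the feedback inhibitor gene Spry2 at 123.0% (adjusted p = 0.408).

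The progenitor antigens differed among themselves. Cd34 was at 739.3, 812.6, 830.0 and 727.3 CPM in Ddx41+/+ cells and at 748.9, 685.2 and 646.7 CPM in Ddx41+/- cells. Replicate 6 (Ddx41+/-) lay inside the Ddx41+/+ range and the other Ddx41+/- samples below it. The Ddx41+/- mean of 693.6 ± 51.6 CPM was 89.2% of the Ddx41+/+ mean of 777.3 ± 51.5 CPM (log2 fold change -0.16, SE 0.0682, unadjusted p = 0.0283, adjusted p = 0.403, exact permutation p = 0.171). Without replicate 8, the log2 fold change of Cd34 was -0.12. Among 9 tested genes of the CD34 sialomucin family and its ligands, 0 passed an adjusted p of 0.05 and 1 was lower by unadjusted p, with a median of -0.076. That gene was Podxl, the CD34 relative podocalyxin, at 65.02% (8.59 ± 2.31 against 5.58 ± 1.65 CPM, adjusted p = 0.364), and the selectin gene Selp stood at 86.1% and the sialomucin gene Emcn at 78.5% (adjusted p = 0.560 and 0.648).

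Cd48 was at 103.5, 130.7, 133.4 and 116.0 CPM in Ddx41+/+ cells and at 118.4, 128.0 and 106.7 CPM in Ddx41+/- cells. All Ddx41+/- values lay inside the Ddx41+/+ range. The means were 120.9 ± 13.9 and 117.7 ± 10.7 CPM, a log2 fold change of -0.04 with an SE of 0.0891 (adjusted p = 0.916). Of 9 tested genes of the SLAM family and partners of CD48, 0 passed an adjusted p of 0.05 and 3 were lower by unadjusted p (Fyn, Slamf1 and Slamf8), with a median of 0.079. Slamf1, which encodes the stem cell antigen CD150, was lower without overlap at 72.7% (8.66 ± 1.48 against 6.30 ± 0.427 CPM, log2 fold change -0.46, SE 0.175, adjusted p = 0.355). Slamf8 was at 45.8% at a low level (1.25 against 0.571 CPM, adjusted p = 0.427). The antigens of opposite meaning in stem cell sorts, CD48 and CD150, thus had transcripts with means at 97.4% and 72.7%, and the log2 ratio of Slamf1 over Cd48 overlapped between genotypes (-4.20 to -3.30 in Ddx41+/+ and -4.34 to -3.99 in Ddx41+/- samples).

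Cd27 was at 123.3, 129.3, 125.3 and 113.1 CPM in Ddx41+/+ cells and at 113.6, 100.3 and 102.8 CPM in Ddx41+/- cells. The groups touched by a narrow margin, replicate 6 (Ddx41+/-) lying just above replicate 4 (Ddx41+/+). The mean was 122.7 ± 6.87 CPM against 105.6 ± 7.06 CPM, or 86.0% (log2 fold change -0.22, SE 0.0700, unadjusted p = 0.00683, adjusted p = 0.284, exact permutation p = 0.0857). This was the smallest unadjusted p of the 7 genes, and it was under 0.05 in all 15 alternative fits (0.00304 to 0.0329), with adjusted p from 0.152 to 0.631. Of 21 tested CD27 partners and TNF receptor family genes, 0 passed an adjusted p of 0.05, 1 was lower and 2 were higher by unadjusted p, with a median of -0.076. Tnfrsf13b, a receptor of B-lineage cells, was at 174.0% (11.3 ± 2.04 against 19.6 ± 4.82 CPM, adjusted p = 0.0769). Tnfrsf14 was at 121.1% (adjusted p = 0.324), and the NF-kappaB subunit gene Relb was at 66.2% (adjusted p = 0.352).

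Cd9 and Esam were the antigens without overlap of scaled CPM between genotypes. With CPM from library totals alone, Cd27 did not overlap either. Cd9 was at 58.3, 54.0, 53.7 and 52.3 CPM in Ddx41+/+ cells and at 44.5, 50.2 and 48.3 CPM in Ddx41+/- cells. All Ddx41+/- samples lay below all Ddx41+/+ samples. The means were 54.6 ± 2.59 and 47.7 ± 2.91 CPM, or 87.3%, and the adjusted test was not passed (log2 fold change -0.20, SE 0.0769, unadjusted p = 0.0215, adjusted p = 0.370). The exact permutation p of Cd9 was 0.0286, the smallest that 4 against 3 samples allow. Of the Cd9 exon bases, 10.7% are overlapped by Gm26728 on the opposite strand, and 150 of 1967 words (7.63%) occur in another gene, so a small part of its counts could be ambiguous.

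Of 29 tested tetraspanin genes and CD9 partners, 0 passed an adjusted p of 0.05, 5 were lower and 2 higher by unadjusted p, with a median of -0.044. The integrin gene Itga2b (CD41 antigen) was at 80.0% (120.8 ± 14.9 against 96.7 ± 10.1 CPM, adjusted p = 0.242), and the tetraspanin genes Tspan13 and Cd151 were at 83.0% and 80.2% (adjusted p = 0.249 and 0.312). These 3 were named for the smallest p in the list, so their shared direction is selected. The genes higher by unadjusted p were Tspan8 at 184.3% (adjusted p = 0.317) and the integrin gene Itga4 at 111.8% (adjusted p = 0.409), named after their values were seen.

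Esam was at 12.9, 11.96, 10.5 and 9.67 CPM in Ddx41+/+ cells and at 8.99, 8.48 and 7.69 CPM in Ddx41+/- cells. No value overlapped between genotypes, and the gap between the nearest samples was smaller than the spread within the Ddx41+/+ group. The mean was 11.2 ± 1.44 CPM against 8.39 ± 0.655 CPM, or 74.6%, the lowest percentage among the 7 genes (log2 fold change -0.42, SE 0.152, unadjusted p = 0.0131, adjusted p = 0.324, exact permutation p = 0.0571). Counts for Esam were 286 to 532 per sample, no other annotated exon overlaps it, and none of its words occur elsewhere. Of 15 tested junction and adhesion genes listed beside Esam, 0 passed an adjusted p of 0.05. By unadjusted p, 5 were lower and 0 higher, and the median was -0.105. The endothelial and stem cell receptor gene Robo4 was at 70.2% (10.5 ± 0.896 against 7.34 ± 1.46 CPM, adjusted p = 0.293), Vsig10 at 74.1% (adjusted p = 0.322) and the junction adhesion gene F11r at 72.2% (adjusted p = 0.330), each without overlap.

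**Figure D3:**
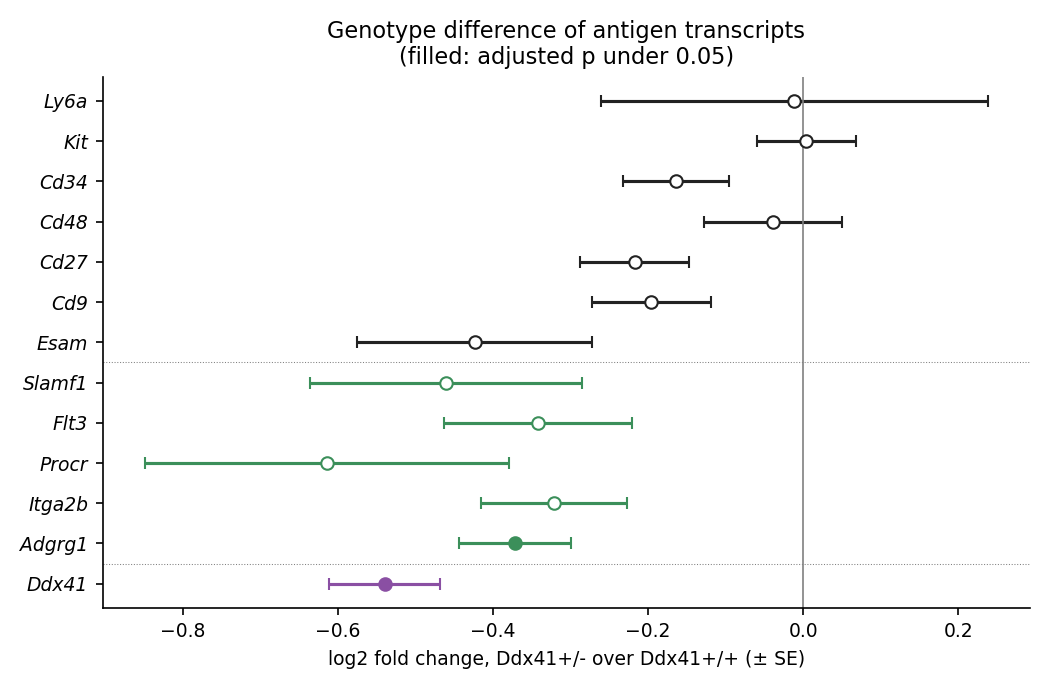
Log2 fold change (Ddx41+/- over Ddx41+/+, ± SE) of the 7 antigen genes, 5 other antigens of LSK subsets and Ddx41, with filled points for an adjusted p under 0.05. Kit, Cd48 and Ly6a lie near 0, Cd34, Cd27, Cd9 and Esam lie below it with open points, and Adgrg1 and Ddx41 are filled.

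Other antigens used to divide LSK cells were described as a list of 40 tested genes. One of them, Adgrg1 (GPR56), an adhesion receptor of stem cells, passed the test and fell to 77.3% (1140.9 ± 112.5 against 882.1 ± 31.5 CPM, log2 fold change -0.37, SE 0.0723, adjusted p = 0.0489). Its adjusted p was under 0.05 in 5 of 15 alternative fits and reached 0.200 without Ddx41+/- replicate 7. By unadjusted p, 7 of the 40 were lower and 2 higher, and the median was -0.0011. Flt3, the receptor that marks lymphoid-primed progenitors, was at 78.9% (250.1 ± 19.7 against 197.3 ± 41.5 CPM, adjusted p = 0.355), and its adjusted p was 0.0324 without Ddx41+/- replicate 6. Procr, the gene of the stem cell antigen EPCR, was at 65.3% without overlap (6.22 ± 1.78 against 4.06 ± 0.804 CPM, adjusted p = 0.360). Of 10 tested Ly6 family genes, 0 passed an adjusted p of 0.05 and 1 was lower by unadjusted p, Cd59a at 77.4% (adjusted p = 0.460), with a median of 0.092. Ly6d, a marker of lymphoid priming, was at 2.13 ± 0.549 and 6.43 ± 7.11 CPM, the latter resting on 14.6 CPM in replicate 7, and Ly6i was at 0.586 and 1.28 CPM (adjusted p = 0.514 and 0.525).

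Ratios within a sample do not depend on scaling, and are given as log2 ratios of CPM with no test. Esam over Kit ran from -5.58 to -5.30 in Ddx41+/+ samples and from -5.99 to -5.67 in Ddx41+/- samples, without overlap. Cd9 over Kit ran from -3.14 to -2.99 and from -3.36 to -3.18, again without overlap. Over Cd48, Esam separated as well, with a mean difference of -0.38, whereas Cd9, Cd27, Cd34 and Slamf1 overlapped between genotypes, so the separation of Cd9 was not seen with Cd48 as the reference. Cd34, Cd27, Cd48 and Ly6a over Kit all overlapped between genotypes. In other terms, there were 2.10 to 2.55 Esam counts per 100 Kit counts in Ddx41+/+ cells and 1.57 to 1.96 in Ddx41+/- cells.

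Among themselves, the 7 genes formed 21 pairs, of which 16 had a positive Pearson's r of log2 CPM over the 7 samples. No pair passed after adjustment over the 21 (smallest adjusted permutation p = 0.121). The highest was Cd34 with Cd27 (r = 0.90, exact permutation p = 0.0103, adjusted 0.121, rho = 0.89, exact permutation p = 0.0123, adjusted 0.129), and r was 0.80 once genotype means were removed and 0.90 without the 2 farthest samples. Cd27 with Esam followed (r = 0.88, exact permutation p = 0.0115, adjusted 0.121, rho = 0.82 with p = 0.0341, 0.63 with genotype means removed, 0.88 without the 2 farthest samples). For Cd9 with Esam, r was 0.80 (exact permutation p = 0.0302, adjusted 0.158, rho = 0.89 with p = 0.0123, 0.96 without the 2 farthest samples) and dropped to 0.35 with genotype means removed. Kit and Cd48 ran in opposite directions (r = -0.83, exact permutation p = 0.0204, adjusted 0.143, rho = -0.79 with p = 0.0480), also with genotype means removed (-0.83), and r was -0.58 without the 2 farthest samples.

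**Figure D4:**
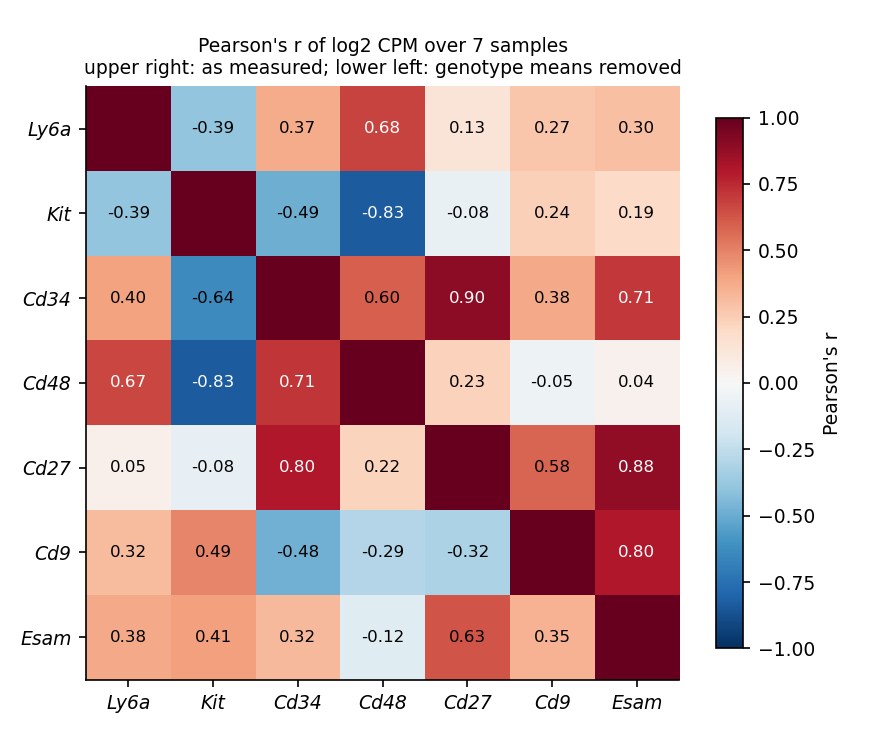
Pearson's r of log2 CPM over 7 samples for each pair of antigen genes, as measured in the upper right and with genotype means removed in the lower left. Cd34 with Cd27 is at 0.90 and 0.80, Kit with Cd48 at -0.83 in both parts, and Cd9 with Esam at 0.80 and 0.35.

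The highest and lowest values fell in 6 of the 7 samples, with none in Ddx41+/+ replicate 4. Ddx41+/+ replicate 1 was the highest of all samples for Kit, Cd9 and Esam and the lowest for Cd48. Ddx41+/+ replicate 3 was the highest for Cd34 and Cd48 and the lowest for Kit. Ddx41+/- replicate 8 was the lowest for Ly6a, Cd34 and Esam. Ddx41+/+ replicate 2 was the highest for Cd27, replicate 6 the lowest for Cd9, and replicate 7 the highest for Ly6a and the lowest for Cd27. Among 8875 other genes with a mean of at least 10 CPM, the nearest to the antigens by Pearson's r over the 7 samples were Tmem106c for Ly6a (0.98), Trim58 for Kit (0.98), Ctsd for Cd34 (0.98), Anp32a for Cd48 (0.99), Pla2g16 for Cd27 (0.98) and Plekho2 for Cd9 (0.97). These genes were picked for the highest of 8875 values over only 7 points, and 29 (Cd9) to 120 (Cd48) genes had an r over 0.9.

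Markers of cells outside the LSK definition were summed in each sample, since they can move with the antigens. The 13 neutrophil markers summed to 807.5 to 1356.9 CPM in Ddx41+/+ samples and 1447.2 to 2490.2 CPM in Ddx41+/- samples, without overlap. Of them, 11 were higher by unadjusted p and 1 by adjusted p (Mmp9, a neutrophil granule protease, at 296.4%, adjusted p = 0.00677). Cxcr2 had a lower mean, at 84.5% (9.22 ± 1.34 against 7.79 ± 2.03 CPM, adjusted p = 0.697). The 13 tested megakaryocyte and platelet markers, 4 lower by unadjusted p and 1 by adjusted p (the platelet chemokine gene Pf4 at 67.8%, adjusted p = 0.0283), summed to 305.2 to 383.3 and 236.9 to 290.9 CPM, also without overlap, with the platelet receptor gene Gp6 listed at 0 throughout. Both sums separated the same samples as Cd9 and Esam did, and their part in those results was not tested. Neutrophil sums were highest in replicate 6, which had the lowest Cd9 value but not the lowest Esam value.

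Genes listed as markers of long-term stem cells were in part lower. Of 16 tested genes, 9 were lower and 0 higher by unadjusted p, and 4 fell by adjusted p (Gimap1, Mycn, Gata2 and Txnip). The median of the list was -0.42, and its sums of 661.9 to 778.4 and 507.3 to 542.4 CPM did not overlap. The other 7 genes were not under 0.05 by unadjusted p, and means above the Ddx41+/+ level were found for Mllt3 (113.9%) and Fgfr3 (104.2%). Several of these genes entered the list with their results in these samples known, so the list is no independent evidence of direction. Gata2, a transcription factor of stem cells and of megakaryocytic cells, was at 71.0% (140.0 ± 19.7 against 99.4 ± 4.41 CPM, adjusted p = 0.0471), Mycn at 52.5% (adjusted p = 0.0157), Gimap1 at 62.5% (adjusted p = 0.0121) and Txnip at 77.1% (adjusted p = 0.0479). The sum separated the samples as Esam and Cd9 did, but with genes listed in that way this is no independent evidence either. Its part in their values was not tested.

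The other marker lists overlapped between genotypes in their sums. Lineage-gate antigens summed to 95.1 to 111.0 and 110.5 to 149.6 CPM, with Itgam (CD11b) making up most of it at 80.5 ± 4.70 and 96.6 ± 12.4 CPM (adjusted p = 0.277), 0 of 9 tested genes past the adjusted test and a median of 0.26. Monocyte and macrophage markers summed to 507.9 to 596.4 and 547.8 to 722.9 CPM, with 3 of 13 higher by unadjusted p (Cd14, Ccr2 and Lyz2), 0 past the adjusted test and a median of 0.26. B-lineage markers summed to 120.2 to 222.0 and 124.7 to 453.2 CPM, the highest in replicate 7, the sample with the highest Ly6a. Jchain, at 35.3 to 128.0 CPM in Ddx41+/+ samples, alone made up 346.1 CPM of the replicate 7 sum (adjusted p = 0.819). One of these 13 genes rose by adjusted p (the B cell adaptor gene Blnk at 189.9%, adjusted p = 0.0401), 4 were higher and 1 lower by unadjusted p, and the median was 0.63. T and NK cell markers had 0 of 6 tested genes under 0.05 in either sense and a median of -0.15, late erythroid markers 0 of 8 past the adjusted test and 1 higher by unadjusted p (the transferrin receptor gene Tfrc at 122.0%), with a median of 0.12, and stromal and endothelial markers 0 of 12 past the adjusted test, 2 lower by unadjusted p (Tek and Cdh5) and a median of 0.083. Among genes of endothelium, Cdh5 was at 0.523 and 0.139 CPM and Flt1 at 5.72 and 7.47 CPM, while Tek at 12.2 and 9.23 CPM, Emcn at 7.74 and 6.07 CPM and Pecam1 at 147.3 and 146.9 CPM were near or above Esam at 11.2 and 8.39 CPM, and Tek and Pecam1 are also expressed by stem and progenitor cells. Their part in the Esam value was not tested.

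**Figure D5:**
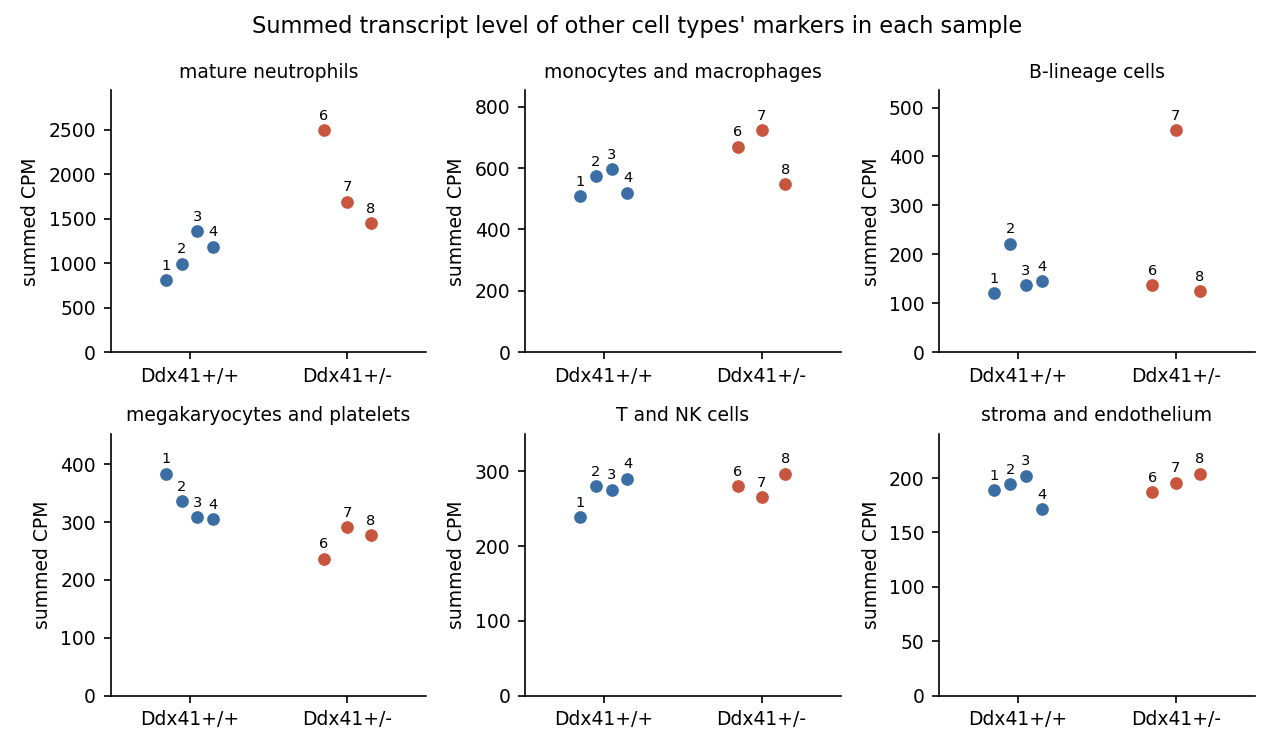
Summed CPM of the markers of 6 other cell types in each sample (blue, Ddx41+/+ replicates 1 to 4; red, Ddx41+/- replicates 6 to 8), each panel from 0. Neutrophil sums are higher and megakaryocyte and platelet sums lower in all Ddx41+/- samples. The B-lineage sum stands out in replicate 7 at 453.2 CPM, of which Jchain alone gives 346.1 CPM.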

How the data were processed

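The authors sorted LSK cells, prepared poly(A) libraries, read them as 75-base pairs and deposited whole-number counts for each gene symbol without normalization. The submitters' processing notes name FastQC 0.11.7, HISAT2 2.0.5, featureCounts 1.5.2 and the mm10 build. The labels name a stranded kit and the study's methods a TruSeq kit not called stranded, so strandedness is uncertain. The strand setting, the annotation and the handling of reads that fit several genes are not given in the sources used here. Per its name, the table leaves out a Ddx41+/- library numbered 5, which was not analysed here, so the Ddx41+/- group is the 3 others. Of the value columns, 0 were left unused.

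Samples were grouped by labelled genotype. Counts were filtered (filterByExpr), scaled by TMM and tested in edgeR 4.0.16 (quasi-likelihood, robust fit, R 4.3.3), with Benjamini-Hochberg adjustment over 13340 genes. The fit was tested on simulated data. CPM are TMM-scaled. Single values were also compared by two-sided exact permutation over 35 splits (smallest p 0.0286), and pairs of genes by exact permutation (scipy 1.17.1). The biological coefficient of variation was 12.9%. Positions and lengths came from GENCODE M21 (GRCm38) and promoters from RefSeq, matched by symbol (7 and 5 of the 7 genes). Alternatives were other scalings, no filter, DESeq2 1.42.0, limma 3.58.1 (voom, with and without quality weights), a non-robust fit and leaving out each sample.

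The 7 genes and 17 lists of related genes and markers were chosen with earlier results of these data known. The lists share genes, and 26 of the 41 other LSK subset antigens listed also stand in another list. Robo4, Fyn, Itga2b, Slamf1 and Procr, for instance, are each counted in more than 1 list, so counts of different lists are not separate evidence. Named genes are the antigens, Ddx41, Slamf1, Flt3 and Procr, listed genes with an adjusted p under 0.05, otherwise up to 3 per list by smallest p, and the nearest genes by Pearson's r (that of Esam is not reported here). Ly6e, Ly6c2, Ly6c1, Ptprc, Cd3e, Cd3d, Gp6, Tspan8, Itga4, Mllt3, Fgfr3, Pecam1, Jchain, Cxcr2, Rn45s and Gm26728 were named after their values were seen. Listed genes absent from the table were not analysed here.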

Additional observations from a re-analysis of the deposited data

Results flagged for a closer look

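Outlying samples were looked for in the 4 Ddx41+/+ samples, over 53 named genes, by the gap of the highest or lowest sample to its neighbour as a share of the group's range (Dixon's 95% limit). Chance alone would give about 2.65 such genes, and 2 were found, neither of them among the 7 antigens. Procr was high in Ddx41+/+ replicate 1 (gap of 0.833 of the range), at 8.85 CPM against 5.001 to 5.64 CPM in the other 3. Tspan13 was low in Ddx41+/+ replicate 4 (gap of 0.891 of the range), at 104.7 CPM against 125.9 to 128.5 CPM in the other 3. The Ddx41+/- group, with 3 samples, was not examined in this way.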

How the results depend on the processing

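No paired analysis was possible because the genotypes share no replicate numbers. The number of the 7 antigen genes with an adjusted p under 0.05 was 0 in every alternative fit. Cd34, Cd27, Cd9 and Esam had lower means in Ddx41+/- cells in all 15 fits, and their unadjusted p was under 0.05 in 11, 15, 13 and 14 of them. The number of antigen genes lower by unadjusted p ranged from 2 (without Ddx41+/- replicate 8) to 4 when single samples were left out, an alternative chosen after seeing the data. Values near 0 changed sign. With Ly6a the log2 fold change ranged from -0.39 to 0.23 as single samples were left out, with Kit from -0.0358 to 0.0445 and with Cd48 from -0.107 to 0.0275. Kit was at -0.0043 with upper-quartile scaling and at -0.0109 with library totals only. The cause of these changes was not tested.

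The count of genes differing over the whole table was 29, against 15 with library totals only, 91 without the filter, 147 by DESeq2, 10 by limma-voom, 14 by the non-robust fit, 74 at an adjusted p under 0.1, and 7 to 41 when single samples were left out. The count over the other antigen and partner lists was 1 (Adgrg1), against 0 with median-of-ratios scaling, library totals only, limma-voom or the non-robust fit, 2 without the filter, by DESeq2 or at an adjusted p under 0.1, and 0 to 1 when single samples were left out. Esam had the fewest counts of the antigens (286 in its lowest sample), for which counting alone gives a coefficient of variation of 5.91%, beside 7.82% over its Ddx41+/- samples.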
